A study of Mus musculus with 2 samples.

Results

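Mesenchymal barcodes of the mouse lung with UMIs of Hhip, Aspn, Mustn1 or Enpp2 were described in 2 single-cell libraries. The field calls cells with such genes alveolar myofibroblasts, and the name is used here as a label for the chosen set. Whether every chosen barcode is such a cell was not tested. They were chosen from the counts themselves. A barcode with at least 500 genes and at most 10% mitochondrial UMIs was mesenchymal when its summed UMIs of Col1a1, Col1a2, Col3a1, Mfap4 and Bgn reached at least 3 and exceeded those of 5 endothelial genes, Pecam1, Cdh5, Cldn5, Egfl7 and Ramp2. It was a member when Hhip, Aspn, Mustn1 and Enpp2 together reached at least 3 UMIs while Cxcl9 and Timp1 together stayed under 10. This gave 190 members among 793 mesenchymal barcodes of the niche library and 121 among 373 of the distal library, or 311 of 3410 barcodes in all. The remaining 603 niche and 252 distal mesenchymal barcodes are called other mesenchymal barcodes.

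Alveolar myofibroblasts are contractile interstitial fibroblasts that line alveolar ducts and the tips of alveolar septa. They are best known from the growing lung, where they are patterned by Hedgehog and platelet-derived growth factor signals, lay down elastin and carry smooth muscle actin. Lipofibroblasts, adventitial fibroblasts, pericytes and the smooth muscle of airways and vessels are the other mesenchymal cells of the lung, and they share part of this gene content.

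Both libraries held CD45-negative lung cells, sorted after dissociation of mouse lungs that had received Labelling-4T1 cells, made from the mammary carcinoma line 4T1, through a vein 7 days before. One library was labelled as niche cells and the other as distal lung cells, and the deposited tables call them Cherry-positive and Cherry-negative. The strain, age and number of mice, and any pooling are not given in the labels, and lungs without tumour cells were not analysed here. Each group was therefore 1 library with no replicate, so no test across samples was possible, and every interval below covers counting error only.

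The niche table had 1473 barcodes and 5283584 UMIs, and the distal one had 1996 barcodes and 4791701 UMIs; the filters left 1423 niche and 1987 distal barcodes. Members carried a median of 3862 UMIs in the niche library (range 1327 to 9659) and 1971 in the distal library (853 to 6954). Other mesenchymal barcodes had medians of 3545 and 2247.5 UMIs. The libraries shared 7 barcodes, none of them a member. Scrublet called 1 niche and 2 distal members doublets, and 104 niche and 74 distal members had no UMI of the 5 endothelial genes.

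The 4 choosing genes encode a Hedgehog-binding membrane protein (Hhip), a small leucine-rich proteoglycan (Aspn), a small nuclear protein of musculoskeletal tissue (Mustn1) and autotaxin, the enzyme that makes lysophosphatidic acid (Enpp2). Since these genes chose the members, their values describe the choice and test nothing. Their summed UMIs had a median of 14 in niche members and 15 in distal members, with highest values of 71 and 55. All 4 genes were present in 63 niche and 50 distal members, while 18 and 9 members were chosen by a single gene, and 11 and 2 passed only through Enpp2. Mustn1 was the most widely detected of the 4, with a UMI in 89.5% of niche and 90.9% of distal members. Aspn was detected in 80.0% of niche and 83.5% of distal members, and Enpp2 in 69.5% of niche and 58.7% of distal members. Hhip was in 51.1% of niche and 70.2% of distal members although niche members were deeper. After thinning to 1200 UMIs per barcode its shares were 28.9% in niche and 60.7% in distal members. Endothelial barcodes held a Hhip UMI in 0.996% of the niche and 0.371% of the distal library.

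The number of barcodes thinned out slowly across the limit of 3 UMIs. Exactly 3 UMIs were carried by 19 niche and 8 distal members, and 2 UMIs by 29 niche and 10 distal barcodes just outside. Acta2, which the rule did not use, had a UMI in 6 of the 19 niche and 1 of the 8 distal barcodes just inside, and in 9 of the 29 niche and 0 of the 10 distal barcodes just outside. At the other end, 94 niche and 61 distal members carried 15 UMIs or more. The limit on Cxcl9 and Timp1 left out 51 niche barcodes that met every other condition, and no distal one.

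**Figure D1:**
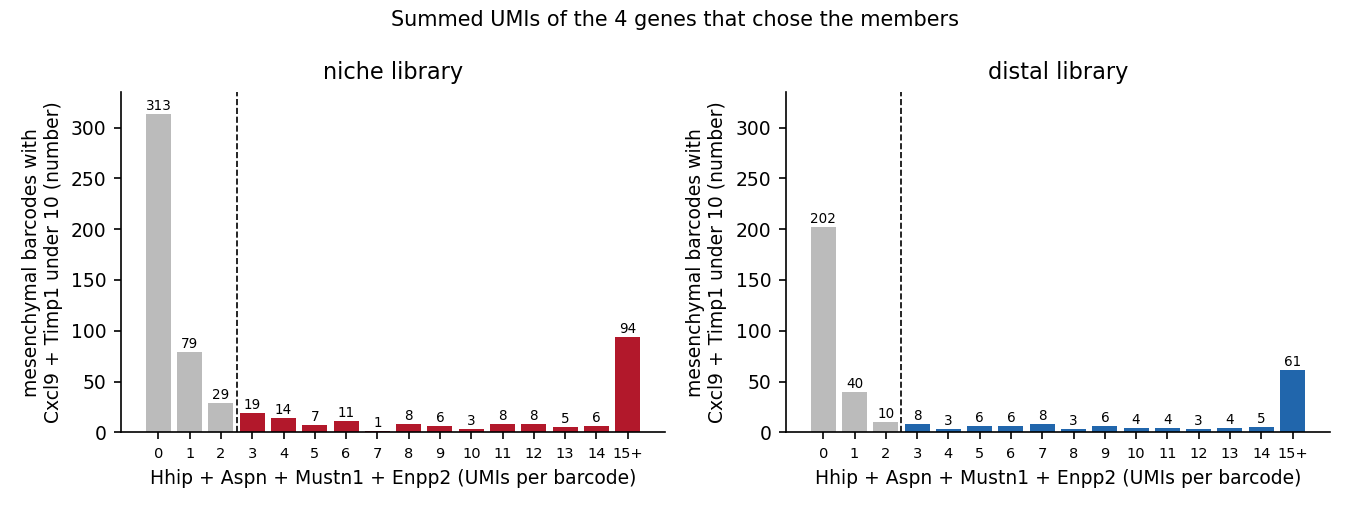
Number of mesenchymal barcodes with fewer than 10 UMIs of Cxcl9 and Timp1 (y axis) by their summed UMIs of Hhip, Aspn, Mustn1 and Enpp2 (x axis), in the niche library (left) and the distal library (right); grey bars are barcodes outside the limit, shown by the dashed line, and coloured bars are members. The last bar of each panel pools barcodes with 15 or more UMIs, 94 in niche and 61 in distal barcodes.

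Of the 5 genes given as markers of these cells, Acta2 and Tagln were outside the rule, and both were far higher in the members. Acta2, smooth muscle alpha-actin, was counted 1776 times in niche members and 1064 times in niche other mesenchymal barcodes, which is 2240.2 against 430.2 CPM (UMIs per 1000000 UMIs of the class). Among distal barcodes it was counted 794 times in members and 35 times in the others, or 2712 against 58.0 CPM. Tagln, an actin-binding protein of smooth muscle, was at 2776 CPM in niche members against 536 in niche others, and at 3044 in distal members against 275 in distal others. Both genes were more than 4-fold higher in the members of either library. Their log2 ratios of members over others were 2.38 (95% counting interval 2.27 to 2.49) for Acta2 and 2.37 for Tagln in the niche, and 5.53 (95% counting interval 5.06 to 6.08) and 3.46 in the distal library. Because the members were chosen on the same cells, these ratios are descriptions of the chosen cells.

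Acta2 was nevertheless not a feature of every member. At least 1 UMI was found in 131 of 190 niche members (68.9%) and 70 of 121 distal members (57.9%). Among other mesenchymal barcodes the share was 28.7% in niche and 4.76% in distal barcodes. Endothelial barcodes, which should lack the gene, held it in 2.39% of the niche (median depth 2355.5 UMIs) and 1.56% of the distal library (1744 UMIs). Thinned to 1200 UMIs per barcode, which kept 190 niche and 112 distal members, the share was 58.4% of niche and 50% of distal members. Tagln was found in 81.1% of niche and 70.2% of distal members, against 3.39% of niche and 0.817% of distal endothelial barcodes.

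Of 18 listed alveolar myofibroblast markers, 11 of 15 measured genes were at least 2-fold higher in niche members than in niche others and 3 were lower, with a median log2 ratio of 1.95. Among distal barcodes 12 of 15 were higher and 3 lower, with a median of 2.29. Over all genes, 2.84% of 9842 measured in the niche were called higher and 5% lower, and 4.49% of 7920 measured in the distal library were called higher and 6.97% lower, with all-gene medians of -0.03 in niche and -0.05 in distal barcodes. In either direction the shares were 7.84% of genes among niche barcodes and 11.5% among distal barcodes. These all-gene shares are the background of every list count of members over others below. A call here means a difference of at least 2-fold whose counting interval excludes equality, among genes with 10 or more UMIs over both sums. Since the rule used the same cells, nothing is read from the excess over these shares.

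The markers that were higher in both libraries included growth factors and receptors as well as matrix genes. Fgf18, a fibroblast growth factor of the alveolar septum, had 77 UMIs in niche members and 20 in niche others. It had 32 UMIs in distal members and none in distal others, at least 22-fold higher against a floor of 3 UMIs. Lgr6, a receptor for R-spondins, was found in 21 of 190 niche and 15 of 121 distal members, against 3 of 603 niche and 1 of 252 distal others. Tgfbi, a matrix adaptor protein, was at 158 CPM in niche members against 40.8 in niche others, and at 225 in distal members against 24.9 in distal others. Igfbp5, which binds insulin-like growth factors, and the proteoglycan Lum were also higher, with log2 ratios of 1.63 and 1.82 in the niche and 2.29 and 1.39 in the distal library.

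Pdgfra, Cdh11 and Hopx went against the label. Pdgfra, the platelet-derived growth factor receptor by which these cells are often traced in mice, had 30 UMIs in niche members and 530 in niche others, with a log2 ratio of -2.48 (95% counting interval -3.08 to -1.97). The distal counts were 16 in members and 242 in others, with a log2 ratio of -2.83 (95% counting interval -3.71 to -2.15). A UMI was found in 11.1% of niche and 9.09% of distal members, against 48.8% of niche and 49.6% of distal others. Most of the few members that held it carried fewer than 15 UMIs of the choosing genes. A Pdgfra UMI was in 13 of 40 niche members with 3 to 5 of these UMIs, 6 of 56 with 6 to 14 and 2 of 94 with 15 or more. Of distal members it was in 5 of 17, 5 of 43 and 1 of 61 at the same limits. Cdh11, a mesenchymal cadherin, had log2 ratios of -2.85 and -2.18, and Hopx of -1.06 and -1.52 in the niche and the distal library.

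**Figure D2:**
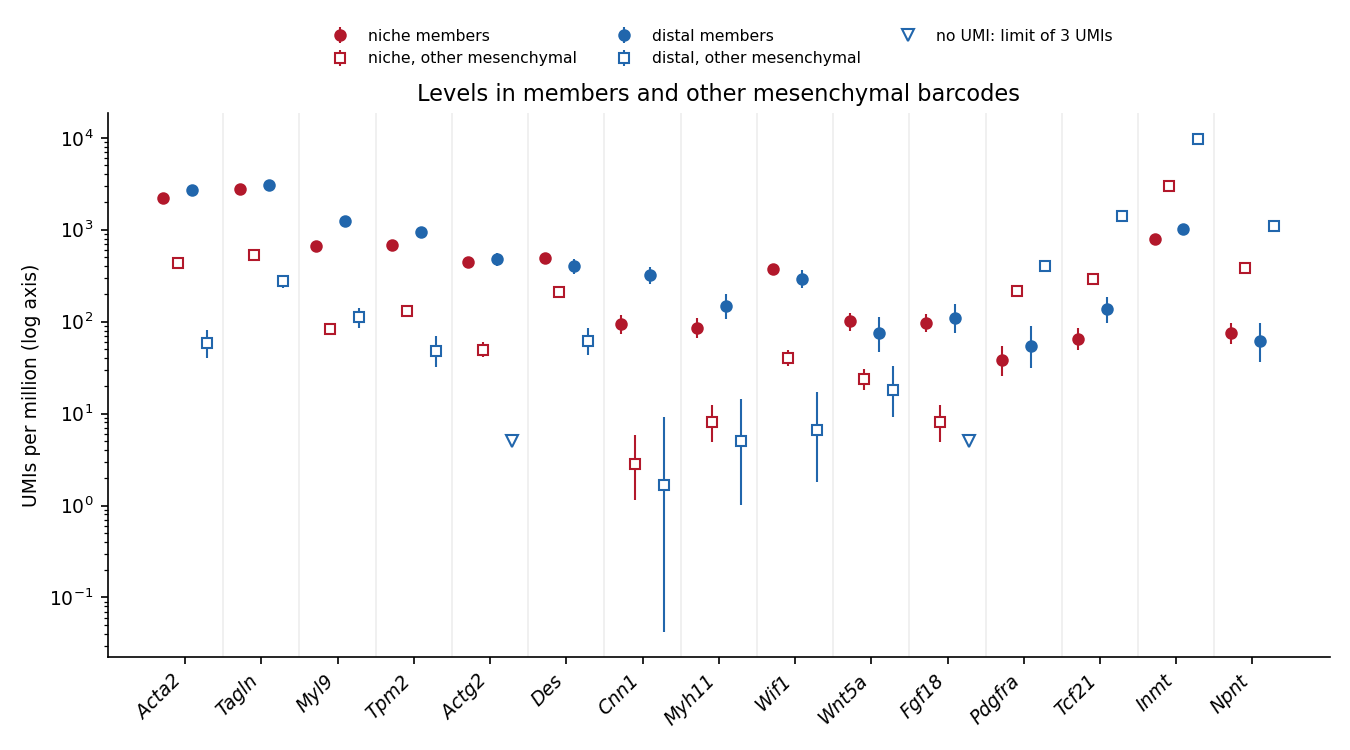
CPM (log y axis) of 15 genes (x axis) in niche members, niche other mesenchymal barcodes, distal members and distal other mesenchymal barcodes; points are summed UMIs scaled to the group's total, bars are exact 95% Poisson intervals for counting error, and triangles mark groups with no UMI at the limit of 3 UMIs. Acta2 to Fgf18 were higher in the members of both libraries, and Pdgfra, Tcf21, Inmt and Npnt were lower.

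Genes of the contractile apparatus, a list that holds Acta2 and Tagln too, were higher in the members as a group. In the niche 11 of 26 measured genes were higher in members and none was lower, with a median log2 ratio of 0.76. Among distal barcodes 15 of 26 were higher and 1, the non-muscle myosin gene Myh10, was lower, with a median of 1.30. Together these genes made up 14554 CPM in niche members against 6751 in niche others, and 16644 in distal members against 5302 in distal others. Myl9, the regulatory myosin light chain, was at 661 CPM in niche members against 82.9 in niche others and at 1229.8 in distal members against 111 in distal others. Tpm2, beta-tropomyosin, had log2 ratios of members over others of 2.36 in niche and 4.27 in distal barcodes. Pdlim3, a Z-disc protein of muscle, had 61 UMIs in niche members against 10 in niche others, and 68 in distal members against 2 in distal others.

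The 7 measured smooth muscle markers, all but Ntn4 also in the contractile list, were all called higher in the members of both libraries, with medians of 3.10 in niche and 4.21 in distal barcodes. Pln, Kcnmb1 and Myocd of that list were not analysed here. Actg2, gamma smooth muscle actin, had 351 UMIs in niche members against 123 in niche others. It had 139 in distal members and none in distal others, at least 95.5-fold higher. Desmin (Des), a muscle intermediate filament, was at 491 CPM in niche members against 211 in niche others, and at 403 in distal members against 61.3 in distal others. Actg2 was in 82 of 190 niche and 33 of 121 distal members, with 32.5% of the niche and 54.7% of the distal UMIs in the 5 highest barcodes. Des was in 111 of 190 niche and 47 of 121 distal members, with 27.8% and 46.6% of the niche and distal UMIs in the 5 highest.

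Myh11 and Cnn1, genes restricted to mature smooth muscle, were found in fewer members. Myh11, the smooth muscle myosin heavy chain, was counted 68 times in 30 niche members and 43 times in 18 distal members, with 55.9% and 62.8% of those UMIs in the 5 highest barcodes. Calponin (Cnn1) was counted 74 times in 21 niche and 94 times in 14 distal members, with 71.6% and 81.9% in the 5 highest. Whether those few barcodes were smooth muscle cells or myofibroblasts was not tested.

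A script searched 250 bases before each RefSeq start (GRCm38.p6) on both strands for the CArG box, the site that serum response factor is known to read before muscle genes. It was found in 482 of 32851 promoters (1.47%) and before 4 of the 24 contractile genes in the promoter table, Cnn2, Myl6, Myl9 and Vcl. Of these, Myl9 is shown because it was among the 12 genes chosen as highest in the members; the box, in capitals, ended 151 bases before the start (chr2:156775273-156775342, plus strand). A match is a string of letters and not a shown binding site. Promoters of Tagln, Myh11 and Actg2 are not in the table used.
Myl9: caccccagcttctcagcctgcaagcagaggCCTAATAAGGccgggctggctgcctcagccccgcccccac

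Lipofibroblast markers were low but not absent in the members. Of the 12 lipofibroblast markers, 11 were lower in niche members than in niche others and all 12 were lower in the distal library, with median log2 ratios of -2.03 and -3.39. Tcf21, the transcription factor that marks these cells, was found in 20 of 190 niche members against 278 of 603 niche others, and in 14 of 121 distal members against 182 of 252 distal others. Inmt, a methyltransferase abundant in lung fibroblasts, was at 793 CPM in niche members against 3024 in niche others, and at 1025 in distal members against 9764 in distal others. Its UMIs in members came largely from few barcodes, with 57.1% of the niche and 62.7% of the distal UMIs in the 5 highest.

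Few adventitial fibroblast markers were called, although their sum was lower in the members. Their summed level was 7802 CPM in niche members against 11559 in niche others, and 14088 in distal members against 22361 in distal others. Gsn gave the most UMIs of the list, 4064 in niche and 2840 in distal members. At least 3 UMIs of the list were carried by 181 of 190 niche and 117 of 121 distal members. Per barcode the median was 36.7 UMIs per 10000 in niche members against 64.6 in niche others, and 51.9 in distal members against 157 in distal others. By gene, 2 of 11 measured genes, Clec3b and Ccl11, were lower in niche members (median -0.45) and 1 of 10 in distal members (median -0.03). With the limit raised to 15 choosing UMIs these medians were -2.78 in niche and -1.64 in distal members. The others then also held the barcodes with 3 to 14 choosing UMIs, so these medians are not against the same others. Pi16, which defines adventitial fibroblasts, was found in 16 of 190 niche members against 113 of 603 niche others. It was found in 14 of 121 distal members against 48 of 252 distal others. Its level was 217 CPM in niche members against 376 in niche others (log2 ratio -0.79). In the distal library its level went the other way, at 970 CPM in members against 632 in others (log2 ratio 0.62). Neither ratio was called. Among pericyte markers the potassium channel gene Kcnj8 was the one called higher in both libraries, at 216 CPM in niche members against 45.3 in niche others and 277 in distal members against 28.2 in distal others. Abcc9, whose product forms a channel with that of Kcnj8, was also called higher in the niche, where 2 of 10 pericyte genes were higher and none lower (median 0.21). In the distal library 2 of 10, Kcnj8 and Rgs5, were higher and 3, Cox4i2, Higd1b and Gucy1a3, lower (median -0.59).

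These markers of other fibroblasts sat with the members of low choosing-gene counts. In niche members with 3 to 5, 6 to 14 and 15 or more UMIs of the choosing genes, the lipofibroblast list summed to 4539, 1108 and 450.2 CPM. The distal sums were 5463, 1343 and 442. The adventitial list ran the same way in both libraries, with sums of 18250.1, 7770.4 and 3544 in niche members and 32618, 16346 and 5542 in distal members. In the lowest band these sums were above those of other mesenchymal barcodes, 11559 CPM in niche and 22361 in distal others. Pi16 was present in 10 of 40 niche and 8 of 17 distal members of the lowest band, and in none of the 94 niche and 61 distal members of the highest. The contractile list ran the other way, at 7012, 13238 and 18296 CPM in niche members and 6955, 11507 and 24234 in distal members. Acta2 was found in 37.5%, 64.3% and 85.1% of niche and 17.6%, 46.5% and 77.0% of distal members across the bands. The bands were set after values had been seen.

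**Figure D3:**
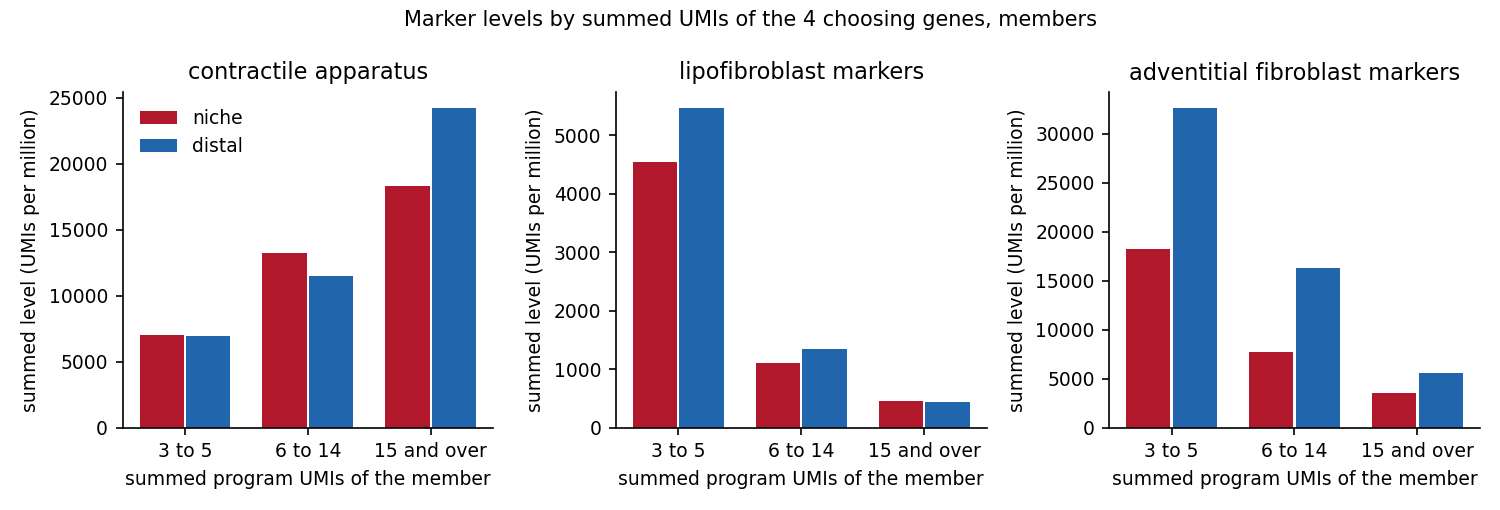
Summed level in CPM (y axes, each from 0) of the contractile, lipofibroblast and adventitial fibroblast lists in members grouped by their summed UMIs of Hhip, Aspn, Mustn1 and Enpp2 (x axis), for niche members (left bar of each pair) and distal members (right bar); the bands held 40, 56 and 94 niche and 17, 43 and 61 distal members. Contractile sums were highest and lipofibroblast and adventitial sums lowest in the top band of both libraries.

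Secreted signals and their antagonists were among the genes higher in the members. Wif1, a secreted inhibitor of Wnt proteins, was at 377 CPM in niche members against 40 in niche others, and at 294 in distal members against 6.63 in distal others. Wnt5a, a ligand of non-canonical Wnt signalling, had log2 ratios of 2.08 in niche and 2.01 in distal barcodes. Bmp5, a bone morphogenetic protein, had log2 ratios of 1.09 in niche and 1.19 in distal barcodes. Id4, a target of that pathway, had 1.63 in niche and 1.69 in distal barcodes.

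By list, 4 of 15 BMP pathway genes were higher and 1 lower in niche members (median -0.13), against 4 and 1 of 14 in distal members (median 0.01). Of the Wnt pathway, 5 of 21 were higher and 2 lower in the niche (median 0.20), against 5 and 1 of 19 in the distal library (median 0.48). Nkd1, an intracellular Wnt antagonist, was higher in both and Wnt2, a ligand of lipofibroblasts, was lower in both, at 8 UMIs in niche members against 168 in niche others and 3 in distal members against 120 in distal others. Of the PDGF and FGF list, 3 of 17 were higher and 3 lower in the niche (median -0.43), and 2 of 15 were higher and 7 lower in the distal library (median -0.60). The receptor genes Fgfr3 and Fgfr4 were lower in both, and Pdgfa, the ligand of Pdgfra, was called higher in the niche.

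The Hedgehog list showed one called gene common to both libraries. Foxf1, a transcription factor that Hedgehog signals are known to induce in lung mesenchyme, was at 129.9 CPM in niche members against 52.6 in niche others and 147 in distal members against 39.8 in distal others. The receptor Ptch1 had 25 UMIs in niche members against 83 in niche others, and 12 in distal members against 31 in distal others, with no call in either. List medians over 8 measured genes were 0.23 in niche and -0.16 in distal barcodes, where Osr1 was called lower. The Gli-site string GACCACCCA was in 74 of 32851 promoters (0.225%) and before none of the 9 Hedgehog-list genes or 3 choosing genes in the table, from which nothing is drawn. Of the lysophosphatidate list, no gene was higher and 1 was lower in each library, Lpar6 in the niche (median -0.38 over 6 genes) and Plpp2 in the distal library (median -0.61 over 5). Lpar1, a receptor for the product of autotaxin, had log2 ratios of 0.54 in niche and 0.79 in distal barcodes, neither called.

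Matrix genes were called in both directions, mostly a few per list. Over all genes 2.84% were called higher and 5% lower in niche members, and 4.49% and 6.97% in distal members. Collagens and small proteoglycans had 2 of 21 genes higher and 2 lower in niche members (median 0.23), and 4 higher and 4 lower in distal members (median -0.16). Lum and Col12a1, a collagen of fibril surfaces, were higher in both, and Col13a1 and the fibronectin gene Fn1 were lower in both. Of the elastic fibre list, 1 of 18 genes was higher and 2 lower in the niche (median -0.46), and 3 higher and 4 lower in the distal library (median -0.37). Elastin itself (Eln) was at 1488 CPM in niche members against 1617 in niche others, and 1025 in distal members against 1371 in distal others, and was not called. Of 14 basement membrane genes 4 were lower and none higher in the niche (median -0.44), and the same numbers held in the distal library (median -0.64). Npnt, a basement membrane ligand of integrin alpha8, had 60 UMIs in niche members against 959 in niche others and 18 in distal members against 661 in distal others.

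Of the TGF-beta list, 0 of 24 genes were higher and 2 lower in niche members (median 0.00), and 4 of 23 were higher and 2 lower in distal members (median 0.35). Tgfbr2, the type II receptor, and Itga8, an integrin subunit, were lower in both. Tgfb3, a ligand, Tgfbr1, the type I receptor, Smad6, an inhibitor, and Fstl1 were called higher in the distal library. Regulators and targets of serum response factor and YAP had 1 of 14 genes, Mkl1, higher in niche members (median 0.03). In distal members 2 of 13, Csrp2 and Axl, were higher and 2, Fhl1 and Amotl2, lower (median 0.35).

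Over all genes, 128 genes were called higher in the members of both libraries and 208 lower, 1.62% and 2.63% of the 7906 genes measured in both. The shared genes were 45.7% of those called higher in the niche and 36% of those in the distal library, and 42.3% and 37.7% of those called lower; 3 genes, Pmpca, Slc34a2 and Car4, were called lower in the niche and higher in the distal library. The genes with the highest limits included Cnn1, Cyp2e1, Pdlim3, Agt, Wif1, Fgf18, Actg2, Myl9, P2ry14, Myh11 and Cntfr. P2ry14, a receptor for UDP-sugars, had 301 UMIs in niche members against 117 in niche others, and 87 in distal members against 2 in distal others. Agt, the precursor of angiotensin, had 58 in niche members against 10 in niche others; with 67 in distal members and none in distal others it was at least 46.0-fold higher there. Cyp2e1, a cytochrome P450, and Cntfr, the binding subunit of the ciliary neurotrophic factor receptor, were low in number, with 85 and 32 UMIs in niche and 60 and 31 in distal members.

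The 12 lowest were Ces1d, Kcnk1, Cxcl14, Aldh1a1, Slc36a2, Colq, Npnt, Pdgfra, Wisp2, Serpina3n, Inmt and Ablim3. Colq, the collagen-like anchor of acetylcholinesterase, had no UMI in any of the 311 members. It had 48 UMIs in niche and 61 in distal others, so it was at least 5.13-fold and 9.87-fold lower in the members. Cxcl14, a chemokine of matrix fibroblasts, was at 101 CPM in niche members against 763 in niche others, and 44.4 in distal members against 368 in distal others. Aldh1a1, which makes retinoic acid, and Ces1d, a carboxylesterase, had log2 ratios of -2.67 and -2.82 in the niche and -4.20 and -4.28 in the distal library.

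The niche and distal libraries were then compared within the members. Members were 24.0% of niche mesenchymal barcodes (exact 95% interval 21.0% to 27.1%) and 32.4% of distal ones (27.7% to 37.5%). They were 13.4% of all niche and 6.09% of all distal barcodes. The share of mesenchymal barcodes rested on the rule: without the limit on Cxcl9 and Timp1 the niche share was 30.4%, and after thinning to 1200 UMIs the shares were 20.2% in niche and 26.0% in distal barcodes. Sorting and depth differed between the libraries along with any difference in the tissue, and these cannot be told apart.

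In all, 286 of 7884 measured genes were at least 2-fold higher in niche than in distal members (3.63%) and 368 were lower (4.67%), 8.3% in all, with an all-gene median log2 ratio of -0.09. These shares are the background of every list count of niche over distal members below. Median-of-ratios scaling in place of total UMIs moved the niche over distal scale by -0.115 on the log2 axis, which raised every ratio by that amount and changed the split to 366 higher and 285 lower. The 12 highest by interval limit were Cytl1, Cxcl10, Iigp1, Gbp4, Tnc, Ccl7, Irgm1, Gbp2b, Zbp1, Psmb8, Plac8 and Isg15, of which Cxcl10, Iigp1, Gbp4, Irgm1, Gbp2b, Zbp1 and Isg15 are interferon-stimulated genes and Psmb8 is an immunoproteasome subunit. Cytl1, a secreted cytokine-like protein, came entirely from 5 niche barcodes (223 UMIs, none in distal members, at least 27.4-fold higher).

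Most interferon response genes were higher in niche members. Of 30 measured genes, 22 were called higher and none lower, with a median log2 ratio of 2.0 (1.85 with Rsad2, which had no UMI in distal members, at its bound). Over the alternatives tried, from 15 of 24 to 25 of 30 of these genes were called higher, and none was called lower. Among members with no UMI of the 5 endothelial genes, 20 of 28 were higher. The 5 immune markers listed in both tables summed to 35.3 CPM in niche members and 143 in distal members, where Lyz2 gave 41 UMIs of the sum. The interferon list summed to 17385 CPM in niche members and 5097 in distal members. Cxcl10, a chemokine for activated T cells, had 2466 UMIs in niche and 60 in distal members, with a log2 ratio of 3.91 (95% counting interval 3.55 to 4.32). A Cxcl10 UMI was found in 104 of 190 niche members (54.7%) and 14 of 121 distal members (11.6%), or 42.6% and 8.93% after thinning. Endothelial barcodes had it in 26.7% of the niche and 5.20% of the distal library. What part of the members' UMIs came from free RNA was not tested.

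The GTPases that restrict intracellular pathogens ran with it. Iigp1 was at 1366 CPM in niche members against 154 in distal members. Irgm1 had 225 UMIs in niche and 8 in distal members, with a log2 ratio of 3.29 (95% counting interval 2.37 to 4.61). Isg15, a ubiquitin-like modifier, was at 597 CPM in niche members against 106 in distal members, with a log2 ratio of 2.47 (95% counting interval 1.97 to 3.07). Irf1, a transcription factor of the interferon response, was not called, at 416 CPM in niche and 372 in distal members (log2 ratio 0.16, 95% counting interval -0.16 to 0.49).

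In other mesenchymal barcodes 25 of the 30 genes were higher in the niche and none was lower, with a median of 1.98, where 4.38% of 9836 measured genes were called higher, 7.54% lower and 11.9% in either direction. Some ratios differed in size between the 2 cell groups, with no test possible: Cxcl10 had 3.91 in members and 5.51 in the others, and Iigp1 3.14 and 1.95. The others of the niche include 182 barcodes with 10 or more UMIs of Cxcl9 and Timp1, which the rule kept out of the members, so the members' niche values are those of barcodes below that limit.

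**Figure D4:**
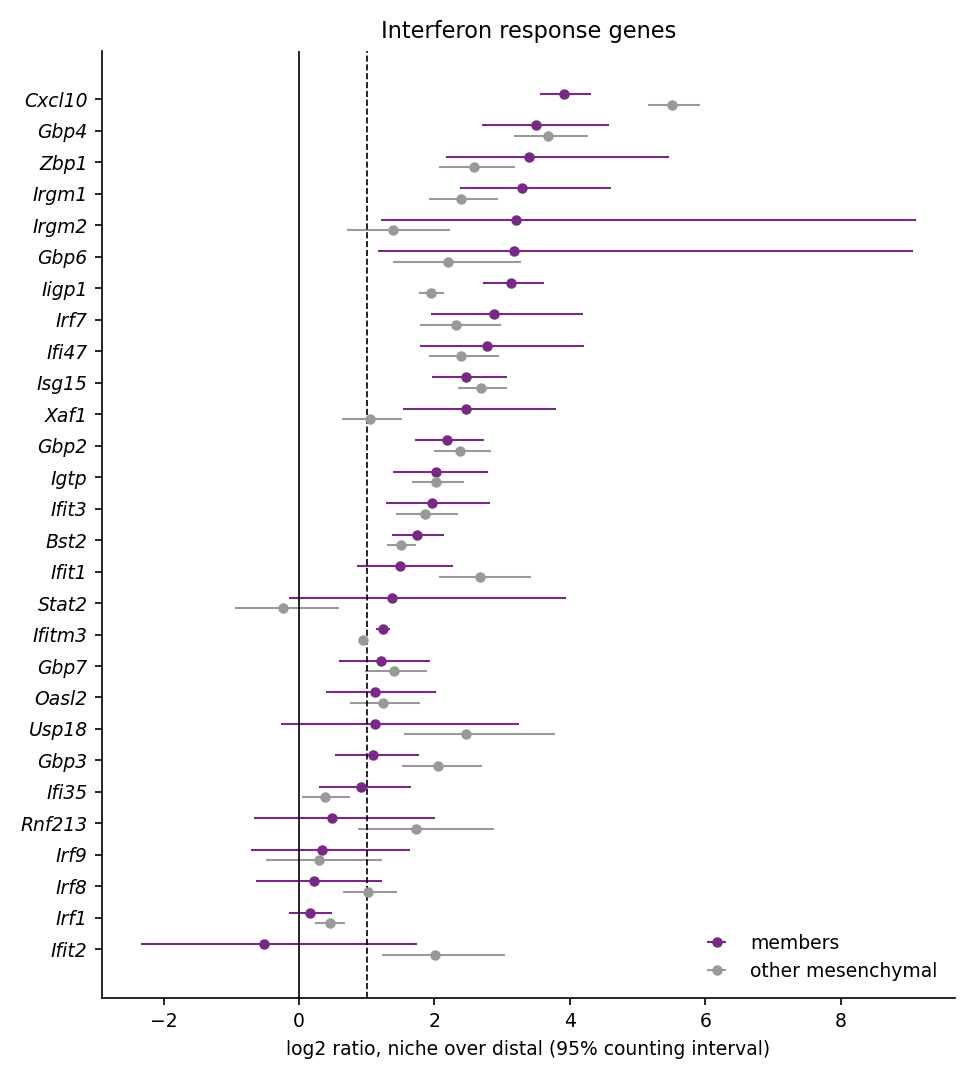
Log2 ratio of niche over distal UMIs (x axis) for 28 interferon response genes with UMIs in all 4 groups (y axis), in members and in other mesenchymal barcodes; points are ratios of summed UMIs scaled to total UMIs with 0.5 added, bars are exact 95% counting intervals, the solid line is equality and the dashed line 2-fold. Cxcl10 has the highest ratio in members (3.91), and Irf1 lies near equality in both groups.

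Promoters of the interferon-list genes, whether called or not, were searched on both strands within the 250 bases before the start. The first string sought was 2 GAAA runs with any 2 bases between them, the core of the interferon-stimulated response element. It was present in 978 of 32851 promoters (2.98%) and before 13 of the 24 interferon-list genes in the table. TTCNNNGAA, the core of the gamma-activated site, was in 2306 promoters (7.02%) and before 7 of the 24 genes; matches of the 2 strings overlapped in 1 of 29 list promoters. The sequences below are those of 4 called genes, with the GAAA pair or its reverse complement in capitals (GRCm38.p6; Cxcl10 chr5:92349063-92349132, minus strand; Irgm1 chr11:48871421-48871480, minus strand; Isg15 chr4:156200845-156200926, minus strand; Gbp2 chr3:142620574-142620643, plus strand). In Irgm1 and Isg15 overlapping matches formed one longer run. The match nearest to the start ended 203, 14, 56 and 49 bases before it in Cxcl10, Irgm1, Isg15 and Gbp2.
Cxcl10: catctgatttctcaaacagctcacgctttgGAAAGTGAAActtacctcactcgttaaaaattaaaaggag
Irgm1: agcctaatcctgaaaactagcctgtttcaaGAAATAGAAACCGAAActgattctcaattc
Isg15: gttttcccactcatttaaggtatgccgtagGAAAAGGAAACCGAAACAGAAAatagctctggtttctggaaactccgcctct
Gbp2: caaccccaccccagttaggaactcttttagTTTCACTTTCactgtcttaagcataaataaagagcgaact

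The interferon list was uneven among niche members. Per barcode it had a lowest value of 1.96, a median of 93.0 and a highest of 660.0 UMIs per 10000 in niche members, and a lowest value of 0, a median of 42.7 and a highest of 407 in distal members. The distal 90th percentile, 100 UMIs per 10000, was exceeded by 90 of 190 niche members (47.4%, exact 95% interval 40.1% to 54.7%) and by 12 of 121 distal members. The niche and distal ranges overlapped, so the niche library held members at distal levels beside members far above them. High values were found at every level of the choosing genes. In the bands of 3 to 5, 6 to 14 and 15 or more UMIs, the median niche over distal log2 ratio of the list was 2.38, 2.51 and 1.70.

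**Figure D5:**
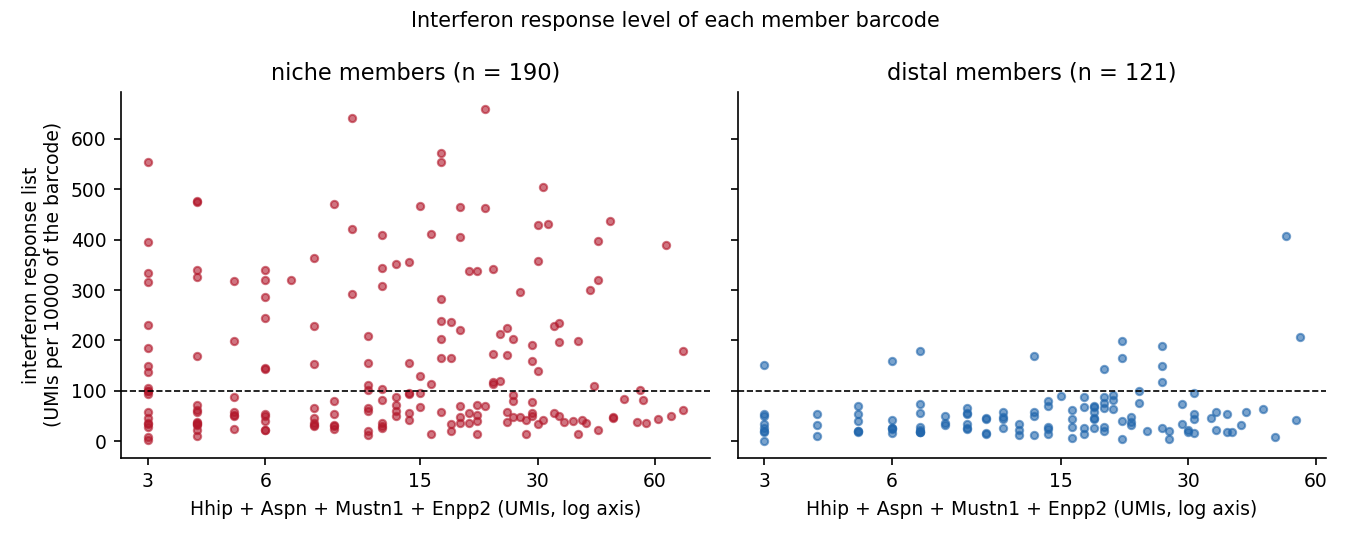
Interferon response UMIs per 10000 UMIs of the barcode (y axis) against summed UMIs of Hhip, Aspn, Mustn1 and Enpp2 (log x axis) in 190 niche members (left) and 121 distal members (right); each point is 1 barcode, and the dashed line is the 90th percentile of distal members, 100 UMIs per 10000. 90 niche and 12 distal members lie above the line.

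Genes of class I antigen presentation followed. 14 of 18 measured genes were higher in niche members and none was lower, with a median log2 ratio of 1.45 and summed levels of 15742 CPM in niche and 5684 in distal members. B2m, the shared light chain, was at 5646 CPM in niche and 1879 in distal members, with a log2 ratio of 1.59 (95% counting interval 1.46 to 1.72). The heavy chain gene H2-K1 had a log2 ratio of 1.91, the peptide transporter gene Tap1 2.21 and the immunoproteasome subunit gene Psmb8 2.66. In other mesenchymal barcodes 16 of 19 were higher in the niche, with a median of 1.23.

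Chemokine and acute phase genes differed gene by gene. 11 of 26 were higher in niche members and 1 was lower, with a median of 0.71. Ccl7, a monocyte chemokine, had 676 UMIs in 64 niche members and 34 in 9 distal members. Ccl2, another, had 903 UMIs in 79 niche and 85 in 9 distal members, with 92.9% of the distal UMIs in 5 barcodes. The cytokine gene Il6 was at about the same level, with 491 CPM in niche and 492 in distal members (log2 ratio -0.01, 95% counting interval -0.28 to 0.28), whereas in other mesenchymal barcodes its niche over distal log2 ratio was 2.05. Within the distal library Il6 was called higher in members than in others. The niche others include the 182 barcodes with 10 or more UMIs of Cxcl9 and Timp1 that the rule kept out of the members. The complement gene C3 had a log2 ratio of 1.43.

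The contractile genes were not higher in the niche. None of 26 was called higher and 3, Cnn1, Lmod1 and Pdlim3, were lower, with a list median of -0.24. That median was 0.10 with members chosen again from thinned counts, and 0.23 among members with no UMI of the 5 endothelial genes. Acta2 was at 2240.2 CPM in niche and 2712 in distal members, with a log2 ratio of -0.28 (95% counting interval -0.40 to -0.15); it ran from -0.58 to 0.42 over the alternatives, so its direction was not fixed. Tagln, at -0.13, ran from -0.34 to 0.40. Myl9 was at 661 CPM in niche and 1229.8 in distal members, a log2 ratio of -0.90 (95% counting interval -1.09 to -0.70) that was short of 2-fold. Pdlim3, with 61 UMIs in 39 niche members and 68 in 36 distal members, had a log2 ratio of -1.59 (95% counting interval -2.12 to -1.07). Cnn1 had a log2 ratio of -1.78, but most of its UMIs lay in 5 barcodes. With members chosen again from thinned counts its value was -0.30.

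The choosing genes were lower per UMI in niche members, with log2 ratios of -1.39 for Hhip, -0.78 for Aspn, -0.58 for Mustn1 and -0.27 for Enpp2. The limit of 3 UMIs is met at a lower relative level in a deeper barcode, and niche members were the deeper ones, so these values are given without a reading. Of the other myofibroblast markers none was called higher and 3, Cdh4, Cdh11 and Ckb, were lower, with a list median of -0.34. Fgf18 (log2 ratio -0.18, 95% counting interval -0.78 to 0.47), Wnt5a (log2 ratio 0.40) and Igfbp5 (log2 ratio 0.10) were not called.

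Of the matrix genes, 4 of 21 collagen and proteoglycan genes, Col5a2, Podn, Fn1 and Tnc, were higher and 1, Col14a1, was lower, with a median of 0.35. The all-gene shares were 3.63% higher and 4.67% lower. Tnc, tenascin-C, a matrix protein of wounds and tumours, was counted 127 times in 62 niche members and 3 times in 2 distal members, with a log2 ratio of 3.75 (95% counting interval 2.39 to 6.26). In other mesenchymal barcodes its ratio was 2.65. Fn1 had 307 UMIs in niche and 38 in distal members, with 86.8% of the distal UMIs in 5 barcodes. Ltbp2, a microfibril protein, had a log2 ratio of 2.09. Lum, at 1283 CPM in niche and 690.1 in distal members, was just short of 2-fold.

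BMP and Wnt genes were lower where they were called, with one exception. Of 15 BMP pathway genes none was higher and 4, Bmp4, Chrdl1, Acvrl1 and Id2, were lower (median -0.47). Id2, a target that blocks other transcription factors, had 78 UMIs in niche and 111 in distal members, with a log2 ratio of -1.94 (95% counting interval -2.38 to -1.52), against 0.53 in other mesenchymal barcodes. Of 17 Wnt genes, 4 were lower, Wnt9a, Wnt11, Fzd2 and Nkd1, on counts of 13 to 82 UMIs in niche and 12 to 71 in distal members (median -0.36). The secreted Wnt inhibitor Sfrp1 was higher, with 155 UMIs in niche and 11 in distal members (log2 ratio 2.32, 95% counting interval 1.5 to 3.41). In other mesenchymal barcodes Bmp4, Chrdl1, Wnt9a, Fzd2 and Nkd1 were also called lower in the niche and Sfrp1 higher. Acvrl1, Id2 and Wnt11 had no call there. Tgfb3, a TGF-beta ligand, had 81 UMIs in niche and 73 in distal members (log2 ratio -1.29, 95% counting interval -1.76 to -0.81). Of 24 TGF-beta genes 1 was higher and 2, Tgfb3 and Itga8, were lower (median -0.12). Gas1, a Hedgehog co-receptor, had a log2 ratio of -1.25 and was the one call among 8 Hedgehog genes (median -0.22). Of 14 PDGF and FGF genes only Fgf2, a fibroblast growth factor, was called, and it was lower (median 0.08). The all-gene shares were 3.63% higher and 4.67% lower, so lists with 1 or 2 calls are given without a reading.

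The 12 lowest genes in niche members were Sftpc, Cxcl15, Lyz1, Sftpa1, Aqp1, Sftpb, Lyz2, Igfbp6, Pi16, Id2, Atp6v0e2 and Cnn1, and 6 of them are genes of alveolar type 2 cells or macrophages. Surfactant protein C (Sftpc) had 95 UMIs in niche and 664 in distal members. It was found in 95.9% of distal members but also in 95.8% of distal endothelial barcodes, which should lack it. The shares were 33.2% of niche members and 25.7% of niche endothelial barcodes. Of the Sftpc UMIs of distal members, 33.7% lay in the 5 highest barcodes. What part of these UMIs came from free RNA was not tested. Of 9 measured type 2 cell genes 8 were lower in niche members (median -4.24), and the list summed to 174 CPM in niche members and 3143 in distal members. Epcam, the general epithelial marker, was at 0 in the members of both libraries. At least 3 UMIs of the list were carried by 10 of 190 niche and 97 of 121 distal members.

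Igfbp6 and Pi16, genes of adventitial fibroblasts, had 210 and 172 UMIs in niche members and 457 and 284 in distal members. Pi16 came from 16 niche and 14 distal barcodes. Its log2 ratio of -2.16 was -0.76, and no longer called, with members chosen again from thinned counts. Aqp1, a water channel, came from 13 niche and 14 distal barcodes. Of 10 adventitial genes none was higher and 3, Pi16, Serpinf1 and Col14a1, were lower (median -0.78). Of 12 lipofibroblast genes Slc7a10 and Gyg were higher and Tcf21 lower (median 0.20), and of 10 pericyte genes Higd1b was higher and Gucy1b3 lower (median -0.42). Immediate early genes, which dissociation is known to induce, summed to 25634 CPM in niche and 35641 in distal members, with 0 of 24 genes higher and 2, Egr2 and Atf3, lower (median -0.41); their part in the differences above was not tested. Of 20 glycolysis and hypoxia genes, Ldha and Hk2 were higher and Slc2a1 and Bnip3 lower (median 0.03). Of 19 respiratory chain genes Cycs was higher (median 0.14), and of 12 cell cycle genes Stmn1 was lower (median -0.27). Over all genes 3.63% were called higher and 4.67% lower in niche members. The lists of this paragraph with 1 or 2 calls are given without a reading. Of 15 activated fibroblast genes, the membrane glycoprotein gene Pdpn and the matrix protease gene Mmp14 were higher, and Il33 and the protease gene Mmp2 lower (median 0.44).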

How the data were processed

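The 2 deposited tables, 1 per library, hold raw UMI counts per gene and barcode as the authors deposited them. The submitters' processing notes name Cell Ranger 2.1.1, R 3.4.1 and the mouse build mm10, and per the labels' protocols the libraries were made with the Chromium 3′ kit. The authors' filters on cells and genes are not given in the sources used here. There were 10791 genes in the niche table and 10814 in the distal one, and the 10198 genes in both were compared. A gene listed in 1 table was given no ratio.

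UMIs were summed over the barcodes of a class in a library. A log2 ratio compares 2 sums scaled to their totals over the common genes, with 0.5 UMI added to each, and has an exact 95% conditional binomial interval. Shares have exact Clopper-Pearson 95% intervals and levels exact Poisson intervals. Barcodes of 1 library are not replicates, PCR and capture errors are shared within a library, and all intervals cover counting error only. A gene was called when it had 10 or more UMIs over both sums, differed at least 2-fold and its interval excluded equality. The 16 genes of the rule were left out of every count. A group with no UMI was set to a floor of 3 UMIs, per group of barcodes, for a lower bound on the fold.

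Genes were named by rule. They were the genes of the rule and the markers. To these came the 12 highest and 12 lowest genes of each comparison by the interval limit nearest to equality, with 30 or more UMIs, leaving out mitochondrial, ribosomal, haemoglobin and unnamed genes. Up to 4 called genes of each list, and its ligands, receptors and defining genes, were named as well. For members over others a gene had to be called in both libraries. Some genes that meet this rule are not reported here. The members and gene lists were chosen with earlier results of these data known. The bands of choosing-gene UMIs, the genes drawn in the level plot, the motifs and several alternatives were chosen after values were seen.

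Promoter sequences came from RefSeq (GRCm38.p6), and the motif counts cover 250 bases upstream of each start. Doublets were called with Scrublet in scanpy 1.11.5 and kept. Other tools were Python 3.11.15, numpy 2.4.6, scipy 1.17.1, pandas 2.3.3 and matplotlib 3.10.9. The ratio and its calls were run on simulated Poisson sums, the model that the interval assumes. Those sums held no spread between barcodes, so the run cannot show how the calls behave under such spread.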

Additional observations from a re-analysis of the deposited data

Results flagged for a closer look

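Some genes had a niche over distal difference of at least 2-fold in members and the opposite in other mesenchymal barcodes; with 1 library per group, the difference between these differences was not tested. Gyg, the glycogenin gene of the lipofibroblast list, had a log2 ratio of 1.34 in members, on 106 niche and 15 distal UMIs, against -1.10 in other mesenchymal barcodes. Slc7a10, an amino acid transporter gene of the same list, had 12 UMIs in 6 niche members and none in distal members. Its fitted log2 ratio of 3.21 depends on the added UMI, the bound being at least 1.48-fold higher, and the ratio was -2.39 in the others. Higd1b, a pericyte marker, had 16 UMIs in 4 niche members and none in distal members, a fitted value of 3.61 with a bound of at least 1.97-fold higher, against -2.28 in the others. The haemoglobin gene Hbb-bs had 110 UMIs in 80 niche members and none in distal members, a fitted value of 6.35 with a bound of at least 13.5-fold higher, against -2.40 in the others. That last value rests on 1 distal other barcode, which held 400 of the 404 UMIs there. In niche others Hbb-bs had 314 UMIs in 230 of 603 barcodes, with at most 5 in a barcode. Car4, an endothelial marker, was at -2.23 in members on 5 niche and 9 distal UMIs, against 1.39 in the others. The alarmin gene Il33 was at -1.01 in members, from 10 niche and 5 distal barcodes, against 1.19 in the others.

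Members also differed from other mesenchymal barcodes in opposite directions in the 2 libraries for 2 genes of other cell types, again without a test of the difference. Slc34a2, a type 2 cell gene, had no UMI in niche members and 39 in niche others, a fitted log2 ratio of -4.66 with a bound of at least 4.17-fold lower. In the distal library it was at 1.64, from 26 UMIs in 3 member barcodes. Car4 was at -1.50 among niche and 2.12 among distal barcodes.

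Some genes were listed in the niche table alone and therefore entered no comparison. In niche members Saa3, an acute phase protein gene, had 261 UMIs in 37 barcodes. Fst, an activin antagonist, had 130 UMIs in 22 barcodes, and Inhba, an activin subunit, had 40 in 15. S100a4 had 86 UMIs in 39 barcodes and the matrix protein gene Thbs2 had 51 in 39. Spp1, osteopontin, had 33 UMIs in 9 barcodes, and Loxl3, a lysyl oxidase gene, had 31 in 25.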

How the results depend on the processing

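No paired analysis was possible because each group was 1 library and no result came from a test. In the thinned alternative the members were chosen again from the thinned counts. Shares of members with a UMI after thinning used the members chosen at full depth. Over the alternatives, 1291 of 1362 list medians and 1124 of 1397 log2 ratios of named genes stayed within the counting interval or, for a median, the binomial range of its ranked genes. Of 81 list medians, 41 crossed 0 in at least 1 alternative (146 of 1362 values), 37 of them from a reported value within 0.5 of 0. The other 4 were, for members over others, the distal activated fibroblast (0.84 to -0.70), pericyte (-0.59 to 0.38) and PDGF and FGF (-0.60 to 0.03) medians and the niche type 2 cell median (-2.82 to 0.17). Where that range had excluded 0, the contractile median of niche over distal members was 0.10 after thinning to 1200 UMIs and 0.23 with no endothelial UMI, and the interferon median of members over others in the niche was 0.14 without the Cxcl9 and Timp1 limit and 0.44 with that limit on the others too. The niche share of mesenchymal barcodes was 27.6% with at least 2 choosing UMIs, 18.9% with at least 6 and 11.9% with at least 15. It was 30.4% without the Cxcl9 and Timp1 limit, 20.2% thinned and 28.4% without barcodes low in Malat1. The distal share was 26.7% with at least 1000 genes per barcode, 26.0% thinned and 16.4% with at least 15 choosing UMIs. Genes higher in niche than distal members numbered 166 thinned, 174 with at least 50 UMIs, 606 without the highest 5% of barcodes of each gene and 599 without the highest 5 barcodes. Genes lower numbered 112, 96, 179 and 175 under the same settings, and 236 with no endothelial UMI. Of members over others in the niche, 159 genes were higher with at least 50 UMIs and 1305 lower without the highest 5 barcodes. In the distal library 230 were higher thinned and 121 with at least 50 UMIs, while 279 were lower with at least 50 UMIs and 973 without the highest 5 barcodes. A fixed number of barcodes is a larger share of the smaller group, and fewer genes are measured at 50 UMIs or after thinning. Why the counts of genes changed was not tested. The limits of at least 15 choosing UMIs, the removal of the highest barcodes and the limit on the others were chosen after seeing the data. Distal members are the shallower and fewer, with 792790 UMIs in niche and 292727 in distal members, so genes under 10 UMIs were not compared.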

Other observations

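Genes listed in the distal table alone gave values in distal members too. Sncg, gamma-synuclein, had 25 UMIs in 9 distal members and none in distal others. The globin gene Ngb had 23 UMIs in 19 distal members and 2 in distal others. C1qtnf3 had 18 UMIs in 9 distal members and 21 in distal others.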
